A study of Homo sapiens with 14 samples.

Results

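The genes described here are 9 genes of P-TEFb (the positive transcription elongation factor), of the 7SK complex that holds P-TEFb inactive, and of the factors that pause RNA polymerase II or carry it into elongation. They are CDK9, CCNT1 and CCNT2 (P-TEFb), HEXIM1, LARP7 and MEPCE (the 7SK complex), AFF4 (the super elongation complex), SUPT5H (the DSIF complex) and NELFE (the NELF complex). They were chosen by name from the 58780 genes of the deposited count table, by a rule that uses no measured value but set with earlier results of these data known, and each name matched 1 row. All 9 were among the 21910 genes that passed the filter on low counts.

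The study measured nascent transcription by PRO-seq, in which engaged polymerases extend their RNA with labelled nucleotides and the labelled RNA is sequenced, in A549, an established human lung carcinoma line. GSK591 blocks PRMT5, the arginine methyltransferase that makes most symmetric dimethylarginine, and MS023 blocks the type I enzymes, which make asymmetric dimethylarginine. The 14 libraries came from 7 groups of 2. These were untreated cells, cells given GSK591 or MS023 (each 1 µM) for 15 min, cells given GSK591 or MS023 together with dexamethasone (Dex, a glucocorticoid, 100 nM) for 15 min, and cells given GSK591 or MS023 for 3 h. All groups shared the cell line and 0.01% DMSO, and the untreated cells carried the 15 min label. Dex was thus measured beside an inhibitor only, and the 3 h groups had no untreated cells of their own time here. The labels do not say that the libraries of a group came from separate cultures, so p-values measure the spread between these libraries, which may be technical.

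As background, polymerase II pauses shortly after it starts a gene, held by DSIF and NELF. CDK9, with cyclin T1 or T2, phosphorylates SPT5, NELF and the polymerase, and the paused enzyme then elongates. Much of the P-TEFb of a cell is kept inactive on the 7SK RNA by HEXIM1 or HEXIM2, with LARP7 and MEPCE bound to that RNA. HEXIM1 transcription is known to respond to the release of P-TEFb from this store, and proteins of elongation such as SPT5 are known substrates of PRMT5 and of type I enzymes.

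The libraries held 5768312 to 9606938 counts, of which 39.8 to 58.0% lay in mitochondrial genes. The second library of GSK591 with Dex stood apart with the highest mitochondrial share, and its group had the most uneven replicates (a chi-square per degree of freedom of 13.4, against 2.0 to 5.38 in the other groups). The keratin genes KRT8 (259 to 353 CPM, the counts scaled to the size of the library) and KRT18 (119 to 178 CPM) were high, whereas EPCAM (1.30 to 4.09 CPM) and CDH1 (1.38 to 3.46 CPM) were low. Markers of fibroblasts, leukocytes and endothelium other than COL1A1 (4.83 to 7.88 CPM) were at or near 0, with 0 to 10 counts for CDH5, 0 to 5 for PECAM1, 0 to 2 for COL1A2, 0 or 1 for DCN and PTPRC, and 0 for CD3E. PER1, a direct target of the glucocorticoid receptor, had 91.2 to 128 CPM in the 4 libraries with Dex and 14.6 to 39.2 CPM in the other 10.

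Among the 9 genes, averaged over both inhibitors, MEPCE, HEXIM1 and NELFE were lower with Dex, and HEXIM1 and MEPCE were higher after 3 h than after 15 min. These averages were added after the data had been seen. A gene was called where edgeR's quasi-likelihood test gave a Benjamini-Hochberg adjusted p, over all genes tested in that comparison, under 0.05. With each inhibitor taken alone, each of these changes with added Dex, or from 15 min to 3 h, was called for only 1 inhibitor. With 15 min of inhibitor alone against untreated cells, 0 of the 9 genes were called for GSK591, where 0.306% of all genes tested were called, and 0 for MS023, where 0.183% were. In both comparisons 0 of the 9 had an unadjusted p under 0.05, which 1501 (GSK591) and 1770 (MS023) of all 21910 genes tested had. DESeq2 also called 0 of the 9, and it called 25 (GSK591) and 50 (MS023) of all 21910 genes. With inhibitor and Dex against untreated cells, 1 gene fell for GSK591 (5.85% of all genes called) and the same 1 for MS023 (7.66%), and it was MEPCE. After 3 h against untreated cells, HEXIM1 rose and CCNT2 fell with GSK591, which makes 2 genes (11.0% of all genes called), and HEXIM1 rose with MS023, which makes 1 (7.63%). These 6 comparisons share the untreated libraries.

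Dex added to GSK591 lowered 2 genes, MEPCE and CDK9, in a comparison that called 3.70% of all genes, and Dex added to MS023 lowered 2, HEXIM1 and NELFE, in one that called 8.97%. The median log2 fold change of the 9 genes was -0.27 beside GSK591 and 0.11 beside MS023, against -0.0043 and -0.016 over all genes tested. Averaged over both inhibitors, Dex lowered 3 genes, HEXIM1, MEPCE and NELFE (12.5% of all genes called). Between 15 min and 3 h, 1 gene rose with GSK591, HEXIM1 (6.41% of all genes called), and 1 with MS023, MEPCE (12.0%). Averaged over both inhibitors, 3 h raised 2, HEXIM1 and MEPCE (18.1%). Both averaged comparisons were added after the data had been seen. No test sets these counts against the share over all genes, and a count of 1 or 2 among 9 is no result about the 9 genes as a group. LARP7, CCNT1, AFF4 and SUPT5H were called in none of the 15 comparisons. No spike-in enters these values, so a change shared by most genes would not be seen, and in bulk libraries fewer transcribing cells and less RNA per cell cannot be told apart.

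**Figure D1:**
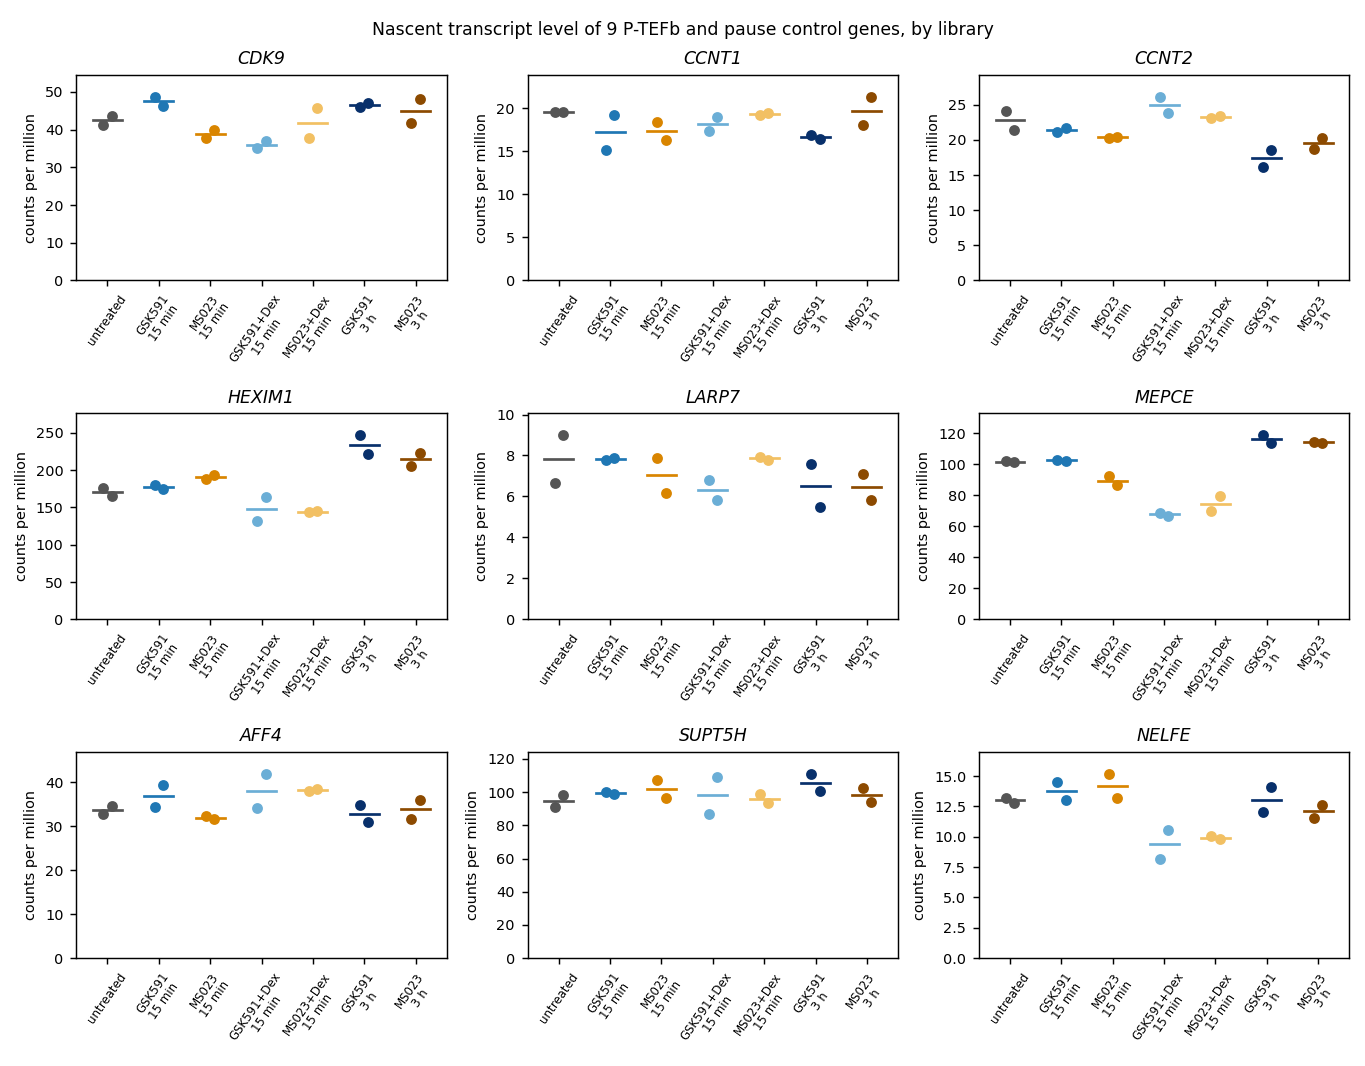
CPM (linear axis from 0) of the 9 genes in the 14 libraries; each point is a library, each line the mean of the 2 libraries of a group, and colours mark the 7 groups. MEPCE is lowest in the 4 libraries with Dex (66.9 to 79.6 CPM) and HEXIM1 is highest in the 4 libraries after 3 h (206 to 246 CPM).

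Per kilobase of exon, the 9 genes differed in level by over an order of magnitude in untreated cells. HEXIM1 stood first with 47.3 ± 2.2 CPM per kb (SD, n = 2 here and below), followed by MEPCE with 29.7 ± 0.19 and CDK9 with 14.2 ± 0.56. SUPT5H had 11.1 ± 0.61, NELFE 4.79 ± 0.11 and AFF4 2.97 ± 0.11 CPM per kb. The last 3 were CCNT1 with 2.65 ± 0.0023, CCNT2 with 2.51 ± 0.20 and LARP7 with 1.92 ± 0.40. Of the neighbours in that order, CCNT1 and CCNT2 did not differ beyond their spread, and neither did CCNT2 and LARP7. Within the 7SK complex, the inhibitor and the capping enzyme thus stood at the top of this order per exon length and the scaffold LARP7 among its last genes. Exons make up 100% of the span of HEXIM1, 64.1% of MEPCE and 58.7% of CDK9. The share is 38.7% in NELFE and 12.8 to 25.9% in the rest. The counting feature is not stated, so reads in introns may be included, and the part of gene structure in this order was not tested. Depth also differed: LARP7 rested on 38 to 82 counts a library and NELFE on 58 to 140, whereas HEXIM1 had 930 to 2335 and MEPCE 437 to 1123.

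HEXIM1 (ENSG00000186834.3) encodes the protein that inhibits CDK9 in the 7SK complex. The gene is a single exon of 3.60 kb at chr17:45148502-45152101 on the + strand (GENCODE release 29, GRCh38). MEPCE (ENSG00000146834.13) encodes the enzyme that caps 7SK RNA with a methyl group. It has 6 exon blocks in 5.34 kb at chr7:100428790-100434126 on the + strand. The upstream sequences of both are shown because these genes fell with Dex and rose after 3 h, and because only these members have a TATA match in their windows. They are reference sequence from RefSeq (GRCh38.p14), 5′ to 3′ on the + strand, and capitals mark every match to the motifs given below. For HEXIM1 the stretch is the 250 bases before the RefSeq start of transcription (chr17:45148225-45148474), and for MEPCE it is 30 bases (chr7:100428743-100428772) before the RefSeq start at 100428790, since ZCWPW1, a coding gene on the other strand, has exons over most of that window. Of the HEXIM1 stretch, 246 bases lie in exons of the gene AC142472.1.
HEXIM1: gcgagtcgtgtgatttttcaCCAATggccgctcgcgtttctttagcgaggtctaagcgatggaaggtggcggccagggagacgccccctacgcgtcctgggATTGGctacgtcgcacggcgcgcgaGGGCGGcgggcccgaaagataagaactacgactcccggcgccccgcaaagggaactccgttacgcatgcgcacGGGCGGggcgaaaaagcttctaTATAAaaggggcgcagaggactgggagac
MEPCE: CCGCCCacactcgctggtaTATAAgtcggc

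In HEXIM1, the capitals are, in order, CCAAT at position -230, its reverse complement at -149, GGGCGG at -124 and at -51, and TATAA at -29, each counted by its first base from the RefSeq start. In MEPCE they are a GC box on the other strand at -47 and TATAA at -28. TATAA, searched on the sense strand from 40 to 20 bases before the start, was found for 2 of the 9 genes and in 2 of their 14 RefSeq windows, and 3.91% of all 35116 windows hold it there. The other motifs were searched on both strands over the 300 bases of each window. GGGCGG was found for all 9 genes, in 12 of 14 windows (45.0% of all windows hold it), and CCAAT for 5 genes (34.6%). CACGTG was found for 3 genes, CCNT1, AFF4 and MEPCE at another of its starts (7.26%), and CCGGAAGT for 3, CDK9, CCNT1 and NELFE (4.14%). TGACGTCA was found for LARP7 alone (1.85%) and the NRF1 motif (GCGCA joined directly to TGCGC) for CCNT2 alone (1.24%). The glucocorticoid response element (AGAACA and TGTTCT with 3 free bases between them) was found for 0 of the 9 genes, and 0.00285% of all windows hold it. The shorter motifs can lie within longer ones, a match is not evidence of binding, and the absence of these letters from a window says nothing of elements elsewhere.

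HEXIM1 had 176 and 165 CPM in untreated cells, 180.2 and 175 CPM with GSK591 for 15 min, and 188 and 194 CPM with MS023 for 15 min. With Dex it had 132 and 164 CPM beside GSK591 and 144 and 145 CPM beside MS023. After 3 h it had 246 and 222 CPM with GSK591 and 206 and 222 CPM with MS023. The 4 libraries with Dex were thus the lowest of the 14 and the 4 libraries of 3 h the highest, with no overlap between these sets and the 6 others. Here and for the genes below, how many of all genes show such a separation was not counted. The averaged comparisons called 12.5% of all genes with Dex and 18.1% at 3 h. By group mean the order ran from GSK591 at 3 h (234 ± 17.3 CPM) through MS023 at 3 h (214 ± 11.8), MS023 at 15 min (191 ± 3.88), GSK591 at 15 min (177 ± 3.89) and untreated (170.3 ± 7.98) to GSK591 with Dex (148 ± 22.8) and MS023 with Dex (144 ± 1.33). Of the neighbours in this order, GSK591 and MS023 at 3 h, GSK591 at 15 min and untreated, untreated and GSK591 with Dex, and both Dex groups had overlapping means ± SD.

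HEXIM1 rose 1.38-fold after 3 h of GSK591 against untreated cells (log2 fold change 0.46 ± 0.10 SE, adjusted p = 0.0014) and 1.26-fold after 3 h of MS023 (0.33 ± 0.10, adjusted p = 0.034). Against 15 min of the same inhibitor it rose 1.32-fold with GSK591 (0.40 ± 0.10, adjusted p = 0.01), and with MS023 the value was 0.16 ± 0.10 (adjusted p = 0.34). The GSK591 call against untreated cells was lost without the second untreated library (adjusted p = 0.055) or the first library of GSK591 at 3 h (0.053), and the MS023 call without any 1 of its 4 libraries (0.07 to 0.28) and with scaling by library size alone (0.12). The call for 3 h against 15 min of GSK591 was lost without either 15 min library (0.058 and 0.13) or the first 3 h library (0.17). With Dex, HEXIM1 fell beside MS023 to 0.756 of its level (log2 -0.40 ± 0.10, adjusted p = 0.007), a call lost without any 1 of the 4 libraries (adjusted p 0.057 to 0.075). Beside GSK591 its difference was -0.27 ± 0.10 (adjusted p = 0.15). The difference between these Dex effects was 0.14 ± 0.15 (adjusted p = 0.82). Averaged over both inhibitors, Dex lowered HEXIM1 by a log2 of -0.34 ± 0.073 (adjusted p = 0.0011), and 3 h raised it by 0.28 ± 0.071 (adjusted p = 0.0037). The averaged Dex call held without each library in turn and under every other setting tried, and the averaged 3 h call was lost only with scaling by library size alone (adjusted p = 0.076).

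The exon of HEXIM1 is overlapped over 14.4% of its length by the antisense gene AC138150.1, which itself had 1.91 to 5.05 CPM. The strand setting of the counting is not stated, so reads of the pair cannot be told apart in the shared stretch. HEXIM2, the paralog that can take the place of HEXIM1 in the 7SK complex, lies on the same chromosome at chr17:45160700-45170040. HEXIM2 had 93.0 and 93.7 CPM in untreated cells, and 60.0 and 67.5 CPM with GSK591 and Dex. Against untreated cells it fell there (log2 -0.55 ± 0.10, adjusted p = 0.00031), a call that held under every alternative. By group mean it had 79.2 CPM with GSK591 alone for 15 min. The means were 69.7 CPM with MS023 alone for 15 min and 76.0 CPM with MS023 and Dex. HEXIM2 was not called when Dex was added to either inhibitor. After 3 h of GSK591 it had 67.5 and 78.0 CPM and fell against untreated cells (-0.36 ± 0.097, adjusted p = 0.01), where HEXIM1 rose. That call of HEXIM2 was lost without either untreated library, without the first 3 h library and with scaling by library size alone (adjusted p up to 0.34). From 15 min to 3 h of MS023 HEXIM2 rose, from 70.3 and 69.2 CPM to 89.0 and 89.8 CPM (0.36 ± 0.099, adjusted p = 0.012), a call lost without either 15 min library, without the first 3 h library and with scaling by library size alone (adjusted p up to 0.35). Of the exons of HEXIM2, 50.3% are shared with an antisense gene, so its values are uncertain.

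MEPCE had 102 and 101 CPM in untreated cells, 103 and 102 CPM with GSK591 for 15 min, and 92.1 and 86.6 CPM with MS023 for 15 min. With Dex it had 68.8 and 66.9 CPM beside GSK591 and 69.5 and 79.6 CPM beside MS023. After 3 h it had 118 and 114 CPM with GSK591, and 114 in both libraries with MS023. MEPCE was therefore lowest in the 4 libraries with Dex and highest in the 4 libraries of 3 h, as HEXIM1 was, without overlap. Its order by group mean was GSK591 at 3 h (116 ± 3.30 CPM), MS023 at 3 h (114 ± 0.455), GSK591 at 15 min (103 ± 0.609), untreated (102 ± 0.635), MS023 at 15 min (89.4 ± 3.89), MS023 with Dex (74.6 ± 7.12) and GSK591 with Dex (67.8 ± 1.33). The 3 h groups had overlapping means ± SD, as did GSK591 at 15 min and untreated cells, and the 2 Dex groups.

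MEPCE fell to 0.661 of its level when Dex was added to GSK591 (log2 -0.60 ± 0.098, adjusted p = 1e-04) and to 0.668 with GSK591 and Dex against untreated cells (-0.58 ± 0.097, adjusted p = 8.6e-05). Both calls held in all 11 alternatives run for each. With MS023 and Dex against untreated cells it fell to 0.734 (-0.45 ± 0.095, adjusted p = 0.0013), a call lost only without the first library of MS023 with Dex (-0.36, adjusted p = 0.075). Dex added to MS023 gave -0.26 ± 0.096 (adjusted p = 0.083), and the difference between the Dex effects beside the 2 inhibitors was -0.33 ± 0.14 (adjusted p = 0.32). Averaged over both inhibitors the Dex effect was -0.43 ± 0.069 (adjusted p = 1.4e-05), and it held in all 15 alternatives. From 15 min to 3 h MEPCE rose 1.27-fold with MS023 (0.35 ± 0.094, adjusted p = 0.0094), and the value with GSK591 was 0.18 ± 0.092 (adjusted p = 0.28). The MS023 call was lost without the second 15 min library (adjusted p = 0.1), without the first 3 h library (0.061) and with scaling by library size alone (0.20, adjusted p = 0.35). Against untreated cells, MEPCE was called at 3 h with neither GSK591 (0.19 ± 0.092, adjusted p = 0.19) nor MS023 (0.17 ± 0.092, adjusted p = 0.32). The averaged rise at 3 h (0.27 ± 0.066, adjusted p = 0.0032) was lost only with scaling by library size alone (adjusted p = 0.11). ZCWPW1, which covers 5.94% of the MEPCE exons on the other strand, had 3.27 to 6.60 CPM.

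LARP7 (ENSG00000174720.15, chr4:112636964-112657592, + strand) encodes the La-related protein that binds the end of 7SK RNA. It ranged from 5.46 CPM in the second library of GSK591 at 3 h to 8.98 CPM in the second untreated library, while the untreated libraries themselves lay at 6.67 and 8.98 CPM. Its fitted differences between 2 groups ran from -0.31 ± 0.23, for Dex added to GSK591, to 0.14 ± 0.22, for Dex added to MS023. With standard errors of 0.21 to 0.23 in these comparisons, a change of the size seen in HEXIM1 or MEPCE could have gone undetected in LARP7 at this depth.

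**Figure D2:**
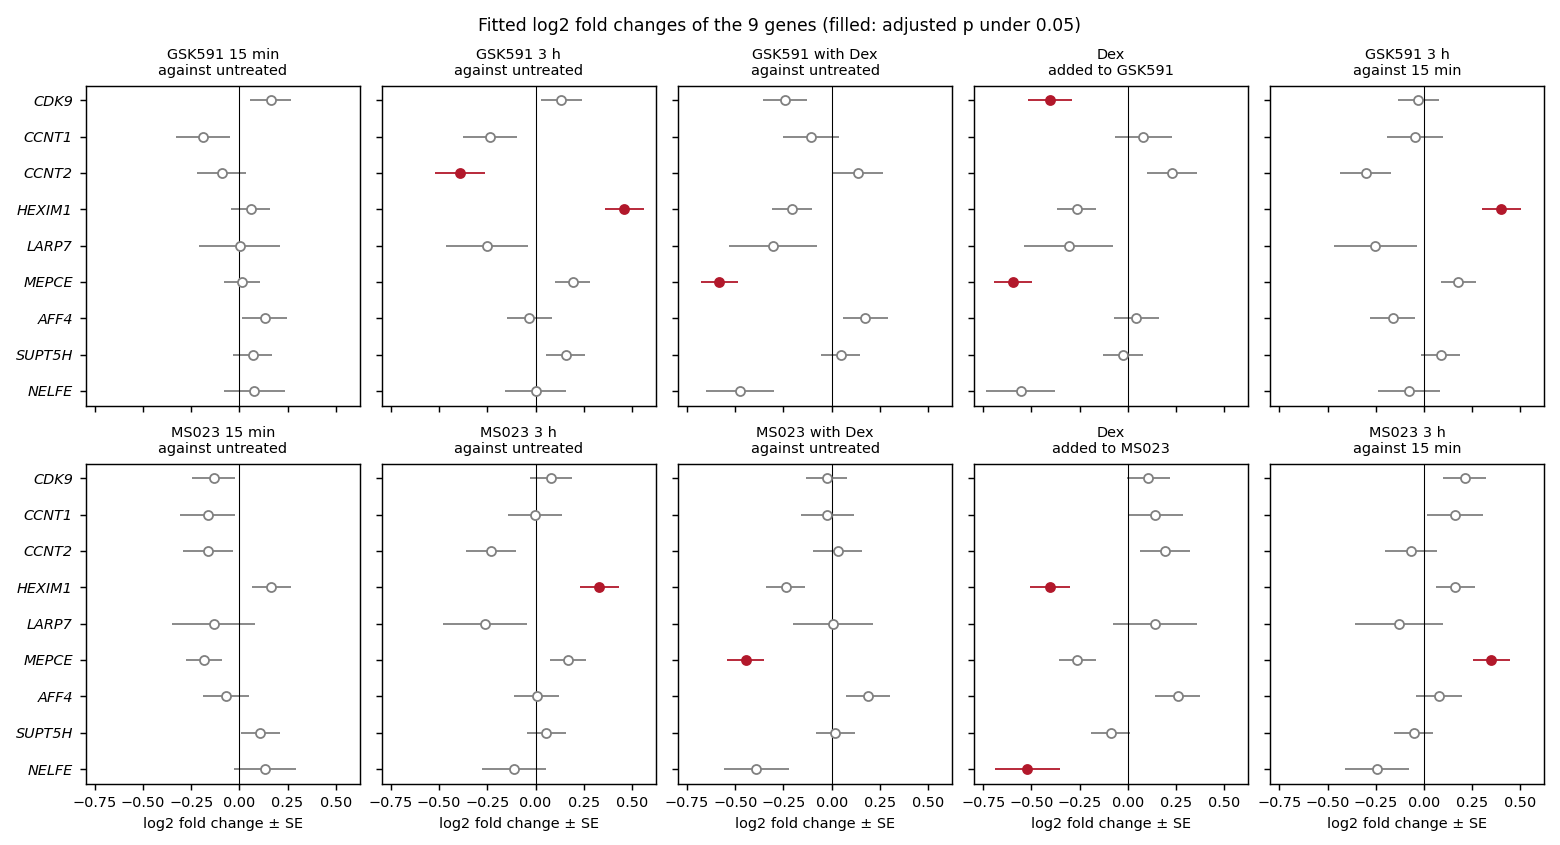
Fitted log2 fold changes (x axis, linear) of the 9 genes (y axis) in 10 comparisons, with bars of 1 standard error; the upper row is GSK591, the lower row MS023, and filled red points have an adjusted p under 0.05. No point is filled for 15 min of inhibitor alone against untreated cells, and the filled points with Dex lie below 0, from -0.60 to -0.40.

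CDK9 (ENSG00000136807.13) is the kinase of P-TEFb and spans 5.11 kb at chr9:127785679-127790787 on the + strand. It had 41.3 and 43.7 CPM in untreated cells, 48.7 and 46.4 CPM with GSK591 for 15 min, and 37.7 and 39.9 CPM with MS023 for 15 min. The Dex libraries had 35.1 and 36.9 CPM beside GSK591 and 37.7 and 45.7 CPM beside MS023. After 3 h it had 46.1 and 47.1 CPM with GSK591 and 41.9 and 48.2 CPM with MS023. Both libraries of GSK591 with Dex were below the 12 others, while those of MS023 with Dex spanned the untreated ones. CDK9 fell to 0.756 of its level when Dex was added to GSK591 (log2 -0.40 ± 0.11, adjusted p = 0.035). This call was lost without any 1 of the 4 libraries (adjusted p 0.1 to 0.24), with no count filter (0.053), with DESeq2 (0.12) and with only the groups compared in the fit (0.095). Beside MS023 the Dex difference was 0.11 ± 0.11 (adjusted p = 0.67). The difference between the Dex effects beside GSK591 and MS023 was -0.51 ± 0.16, with an unadjusted p of 0.0026 and an adjusted p of 0.12. In that comparison 0 of the 9 genes were called by edgeR and by DESeq2, and edgeR called 1.15% of all genes. Of all 21910 genes tested, 2360 had an unadjusted edgeR p under 0.05, and so did 2 of the 9 (CDK9 and MEPCE). The microRNA genes MIR2861 and MIR3960, which cover 5.83% of the CDK9 exons, had 0 counts in all libraries.

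CCNT2 (ENSG00000082258.12, chr2:134918235-134959342, + strand) and CCNT1 (ENSG00000129315.10, chr12:48688458-48716998, - strand) encode the alternative cyclins of CDK9. CCNT2 had 24.1 and 21.5 CPM in untreated cells, 21.1 and 21.7 CPM with GSK591 for 15 min and 20.3 and 20.4 CPM with MS023 for 15 min. With Dex it had 26.2 and 23.9 CPM beside GSK591, and beside MS023 both libraries lay between the 2 untreated ones. After 3 h it had 16.1 and 18.6 CPM with GSK591 and 18.8 and 20.2 CPM with MS023. The 4 libraries of 3 h were the lowest of the 14, whereas for HEXIM1 and MEPCE they were the highest. The Dex libraries were not set apart at the other end. The first untreated library (24.1 CPM) lay above the second of GSK591 with Dex (23.9 CPM) and above both of MS023 with Dex. CCNT2 fell to 0.761 of its untreated level after 3 h of GSK591 (log2 -0.39 ± 0.13, adjusted p = 0.042), and the value for MS023 was -0.23 ± 0.13 (adjusted p = 0.34). The GSK591 call was lost without any 1 of its 4 libraries (adjusted p 0.059 to 0.35), with scaling by library size alone (0.38), with no count filter (0.096) and with DESeq2 (0.15).

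CCNT1 had 19.6 CPM in both untreated libraries and ranged from 15.2 CPM, in the first library of GSK591 at 15 min, to 21.3 CPM, in the second library of MS023 at 3 h. The replicates of GSK591 at 15 min alone lay at 15.2 and 19.2 CPM, and no comparison was called. Its most negative fitted difference was -0.24 ± 0.14, for GSK591 at 3 h against untreated cells (adjusted p = 0.32). The ratio of CCNT1 to CCNT2 read counts in the same library was 0.881 to 1.05 in the 4 libraries of 3 h and 0.665 to 0.913 in the 10 others. These ranges overlap, and the ratio compares libraries, not the levels of both genes, since it is not per length.

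AFF4 (ENSG00000072364.12, chr5:132875379-132963634, - strand) is the scaffold of the super elongation complex, which brings P-TEFb to genes. It had 32.7 and 34.5 CPM in untreated cells and 30.9 to 41.8 CPM over all libraries. With Dex it had 34.2 and 41.8 CPM beside GSK591 and 38.0 and 38.5 CPM beside MS023, and the latter lay above both libraries of MS023 alone (32.2 and 31.7 CPM). Its difference when Dex was added to MS023 was 0.26 ± 0.12, with an unadjusted p of 0.034 and an adjusted p of 0.19. SUPT5H (ENSG00000196235.13, chr19:39436156-39476670, + strand) encodes SPT5, the DSIF subunit that CDK9 phosphorylates. It varied least of the 9 genes, 1.27-fold between the lowest library (87.0 CPM) and the highest (111 CPM), and both extremes of the Dex groups, 87.0 and 109 CPM, were replicates of GSK591 with Dex. Its differences from untreated cells ran from 0.019 to 0.16 over the 6 treatments with standard errors of 0.10, and none was called.

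NELFE (ENSG00000204356.13, chr6:31952087-31959110, - strand) encodes the RNA-binding subunit of NELF. It had 13.2 and 12.8 CPM in untreated cells, 14.5 and 13.0 CPM with GSK591 for 15 min, and 15.1 and 13.2 CPM with MS023 for 15 min. The Dex libraries had 8.21 and 10.6 CPM beside GSK591 and 10.1 and 9.82 CPM beside MS023. After 3 h it had 12.0 and 14.1 CPM with GSK591 and 11.6 and 12.6 CPM with MS023. The 4 libraries with Dex were below the 10 others, and among the 5 groups without Dex those of MS023 at 3 h lay below untreated cells and both groups of 15 min of inhibitor. NELFE fell to 0.696 of its level when Dex was added to MS023 (log2 -0.52 ± 0.17, adjusted p = 0.043), and the value beside GSK591 was -0.56 ± 0.18 (adjusted p = 0.071). The MS023 call was lost without any 1 of the 4 libraries (adjusted p 0.054 to 0.41), with no count filter (0.055) and with DESeq2 (0.17). Averaged over both inhibitors NELFE fell by a log2 of -0.54 ± 0.12 (adjusted p = 0.0019), and this call held in all 15 alternatives, with adjusted p up to 0.026.

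NELFE shares 31 exon bases with SKIV2L on the other strand, and SKIV2L also fell with Dex averaged over both inhibitors (log2 -0.35 ± 0.098, adjusted p = 0.011) from a level of 16.8 to 27.2 CPM. The part of that overlap in the NELFE values was not tested. Of the 3 other NELF subunits, NELFA, NELFB and NELFCD, none was called with Dex by edgeR, with differences of -0.19 to 0.088 when Dex was added. NELFB rose after 3 h of MS023 against untreated cells (0.36 ± 0.12, adjusted p = 0.048), a call lost in 8 of 11 alternatives, among them each of the 4 libraries left out (adjusted p up to 0.31). The ratio of NELFE to NELFB read counts in the same library was 0.216 to 0.361 in the 4 libraries with Dex 0.338 to 0.431 in the 6 libraries of untreated cells and of 15 min of inhibitor, and 0.287 to 0.335 in the 4 of 3 h. These ranges overlap through the second library of GSK591 with Dex (0.361), which had the highest mitochondrial share, and the other 3 Dex libraries were at 0.216 to 0.268.

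The mitochondrial share of counts was 39.8 to 48.6% in the 4 libraries of 15 min of inhibitor alone and 48.2 to 58.0% in the 4 with Dex. It was 54.0 and 53.8% in untreated cells, within the range of the Dex libraries, and 43.5 to 53.2% after 3 h. With mitochondrial genes left out of the scaling, MEPCE still fell when Dex was added to GSK591 (log2 -0.59, adjusted p = 1e-04), and HEXIM1 (-0.40, adjusted p = 0.0064) and NELFE (-0.52, adjusted p = 0.043) when it was added to MS023. With scaling by library size alone, which keeps the mitochondrial counts in the denominator, the median of all genes moved to -0.21 for Dex added to GSK591 and to -0.19 for Dex added to MS023. In that scaling HEXIM1 (-0.48, adjusted p = 0.017) and NELFE (-0.76, adjusted p = 0.011) were also called beside GSK591 and MEPCE (-0.44, adjusted p = 0.03) beside MS023, so that 4 and 3 of the 9 genes were called. Of all 21910 genes tested, that scaling called 1472 for Dex added to GSK591 and 1850 for Dex added to MS023. No called value changed direction in any scaling.

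The members called with Dex were the 4 that span under 10 kb. HEXIM1 spans 3.60 kb, CDK9 5.11 kb, MEPCE 5.34 kb and NELFE 7.02 kb, and their differences when Dex was added to GSK591 ran from -0.60 to -0.27. The 4 genes of 10 to 50 kb (LARP7 20.6 kb, CCNT1 28.5 kb, SUPT5H 40.5 kb, CCNT2 41.1 kb) had -0.31 to 0.23 there, and AFF4, at 88.3 kb, had 0.044. Over all protein-coding genes tested, the median difference was -0.13 for the 3033 genes under 10 kb, -0.008 for the 6228 genes of 10 to 50 kb and 0.06 for the 5090 genes over 50 kb. Beside MS023 these medians were -0.087, -0.021 and 0.078, and the short members ran from -0.52 to 0.11, with CDK9 the exception at 0.11. Of all genes under 10 kb, 7.52% fell when Dex was added to GSK591 and 8.70% when it was added to MS023, against 0.57% and 0.963% of those over 50 kb. Span thus moved with the Dex difference over all genes as well as in these 9, and its part in the values of the members was not tested.

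**Figure D3:**
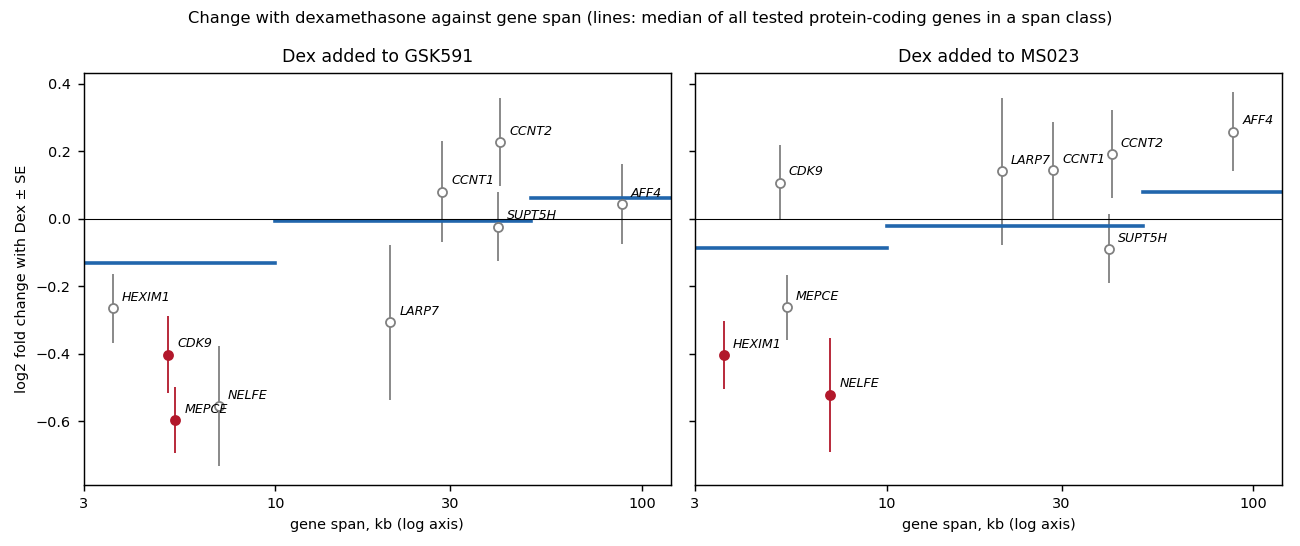
Log2 fold change with Dex (y axis, linear, bars of 1 standard error) against gene span in kb (x axis, log scale) for the 9 genes, beside GSK591 (left) and MS023 (right); filled red points have an adjusted p under 0.05 and blue lines are medians of all tested protein-coding genes under 10 kb, of 10 to 50 kb and over 50 kb. The short genes HEXIM1, MEPCE and NELFE lie below the median of their class in both panels and CDK9 only beside GSK591.

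The inhibitors were compared with each other at the same dose and time. At 15 min 0 of the 9 genes differed between GSK591 and MS023 by edgeR and by DESeq2, and edgeR called 1.09% of all genes. Of all 21910 genes tested, 2137 had an unadjusted edgeR p under 0.05, and so did 2 of the 9. These were CDK9, with a difference of 0.30 ± 0.11 toward GSK591 (adjusted p = 0.28), and MEPCE, with 0.20 ± 0.094 (adjusted p = 0.48). At 3 h 0 of the 9 differed by either tool and 0 had an unadjusted p under 0.05. There edgeR called 0 of all genes tested (0%), of which 1319 had an unadjusted p under 0.05, and DESeq2 called 5. The differences at 3 h ran from -0.23 ± 0.14 for CCNT1 to 0.13 ± 0.10 for HEXIM1. A change after 3 h that was called for 1 inhibitor and not for the other, as for CCNT2, is thus not shown to differ between them.

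Within a library, HEXIM1 read counts can be set against those of its partners, which removes the scaling between libraries. The ratio of HEXIM1 to CDK9 counts was 4.26 and 3.77 in untreated cells, 3.70 and 3.77 with GSK591 for 15 min and 4.99 and 4.86 with MS023 for 15 min. With Dex it was 3.75 and 4.44 beside GSK591 and 3.80 and 3.18 beside MS023, and after 3 h it was 5.34 and 4.71 with GSK591 and 4.92 and 4.61 with MS023. The ratio was at least 4.61 in the 6 libraries of 3 h and of MS023 at 15 min, and at most 4.44 in the 8 others. The ratio of HEXIM1 to MEPCE counts was 1.63 to 1.75 in the 4 libraries of untreated cells and of GSK591 at 15 min and 1.80 to 2.45 in the 10 others. HEXIM1 and MEPCE, which had the same libraries at their extremes, thus did not move in a fixed proportion. The ratio of HEXIM1 to HEXIM2 counts was 1.89 and 1.76 in untreated cells, 2.34 and 2.14 with GSK591 for 15 min and 2.68 and 2.80 with MS023 for 15 min. It was 2.19 and 2.43 with GSK591 and Dex, 1.98 and 1.82 with MS023 and Dex, 3.65 and 2.85 after 3 h of GSK591 and 2.31 and 2.48 after 3 h of MS023, so untreated cells and MS023 with Dex held the lowest values. These ratios are not per length, are described with no test, and do not say which gene of a pair moved.

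**Figure D4:**
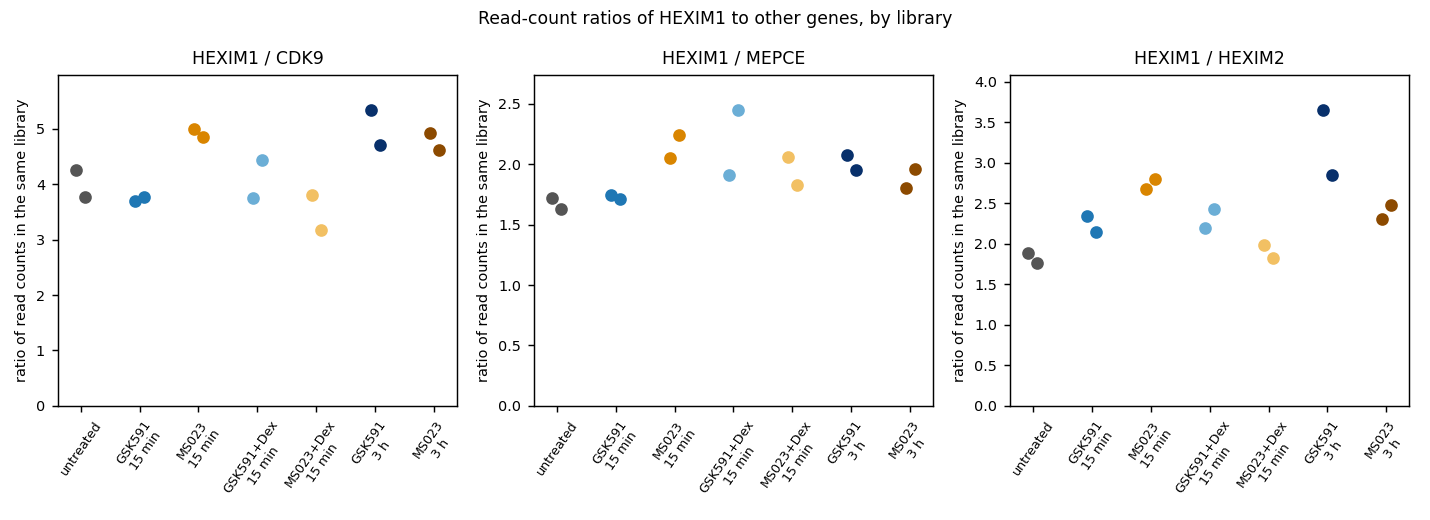
Ratio of HEXIM1 read counts to those of CDK9, MEPCE and HEXIM2 in the same library (linear axes from 0); each point is 1 of the 2 libraries of a group, and colours mark the groups. The HEXIM1 to CDK9 ratio is 4.61 to 5.34 in the 3 h libraries and 3.18 to 4.44 in the Dex libraries.

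Across the 7 group means of log2 CPM, HEXIM1 and MEPCE had a Pearson correlation of 0.88 and HEXIM1 and CCNT2 one of -0.96. MEPCE and CDK9 had 0.83, and MEPCE and NELFE 0.77. These values rest on 7 points that share the same 14 libraries and are a description. Among the 12175 genes whose mean reached 5 CPM, those most like HEXIM1 over the 7 means were RBM22 (0.998), ZNF230 (0.997) and PARD6A (0.997). Those most like MEPCE were BEST4 (0.998), ACTG1 (0.996) and BSN (0.993), and those most like NELFE were NKAIN4 (0.991), ZNF419 (0.987) and SLC25A11 (0.986). For CDK9 they were SPPL2B (0.98), SLC1A5 (0.964) and ABHD17A (0.96), and for CCNT2 MTATP8P2 (0.996), ACADM (0.995) and CCDC80 (0.991). They were picked as the highest of many candidates, and nothing is read from them about function or control.

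The other genes of the pathway were counted from a list of 44, of which 43 passed the filter. The exception was SUPT4H1, the partner of SPT5 in DSIF, with 0 to 9 counts and exons largely shared with other genes. Of these 43, 0 were called by edgeR at 15 min of GSK591 or MS023 alone, where 0.306% and 0.183% of all genes were called. Of all 21910 genes tested, 1501 (GSK591) and 1770 (MS023) had an unadjusted p under 0.05, and so did 3 and 5 of these 43. With GSK591 and Dex against untreated cells 2 rose and 3 fell (5.85% of all genes called), and with MS023 and Dex 2 rose and 3 fell (7.66%). With 3 h of GSK591 6 rose and 2 fell (11.0%), and with 3 h of MS023 5 rose and 2 fell (7.63%), both against untreated cells. Dex added to GSK591 raised 1 and lowered 0 (3.70%), and added to MS023 it raised 2 and lowered 3 (8.97%). From 15 min to 3 h, 3 rose and 2 fell with GSK591 (6.41%), and 6 rose and 3 fell with MS023 (12.0%). The median log2 fold change of the list lay between -0.068 and 0.062 in all these comparisons, and that of all genes between -0.016 and 0.016. Of the 45 calls of list genes in the planned comparisons, 10 held in all 11 alternatives.

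Of the factors that recruit P-TEFb or aid pause release, JMJD6, a factor of pause release, rose at 3 h. It had 20.3 and 21.8 CPM in untreated cells, 37.3 and 35.6 CPM after 3 h of GSK591, and 31.6 and 32.3 CPM after 3 h of MS023. It rose against untreated cells with GSK591 (log2 0.79 ± 0.12, adjusted p = 3.9e-06) and with MS023 (0.60 ± 0.12, adjusted p = 0.00049), and both calls held in all alternatives. With Dex it had 14.1 to 15.5 CPM in the 4 libraries and fell against untreated cells beside MS023 (-0.54 ± 0.13, adjusted p = 0.0054) and GSK591 (-0.48 ± 0.14, adjusted p = 0.029). The MS023 call was lost without the second untreated library or the first library of MS023 with Dex (adjusted p up to 0.085), and the GSK591 call without any 1 of its 4 libraries, with DESeq2 and with only the groups compared (up to 0.2). JMJD6 thus had the same order as HEXIM1 and MEPCE, lowest in the 4 Dex libraries and highest in the 4 libraries of 3 h. BRD2, a bromodomain protein, also fell with Dex against untreated cells, beside GSK591 (-0.31 ± 0.094, adjusted p = 0.039) and MS023 (-0.35 ± 0.093, adjusted p = 0.014), but both calls were lost without any 1 of their 4 libraries (adjusted p up to 0.26 and 0.17).

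TCEA1, which encodes the elongation factor TFIIS that restarts backtracked polymerase, was higher at 3 h and with MS023 and Dex than in untreated cells. It had 14.4 and 14.9 CPM in untreated cells, 27.2 and 30.0 CPM after 3 h of GSK591 and 28.6 and 27.6 CPM with MS023 and Dex. It rose with GSK591 at 3 h (0.96 ± 0.14, adjusted p = 2.8e-06), with MS023 at 3 h (0.75 ± 0.14, adjusted p = 0.00031) and with MS023 and Dex (0.94 ± 0.14, adjusted p = 7.2e-06), all against untreated cells and in all alternatives. With GSK591 and Dex it had 28.2 and 19.6 CPM and rose against untreated cells (0.71 ± 0.15, adjusted p = 0.0015), a call lost without the first of these libraries (0.41, adjusted p = 0.17) and with scaling by library size alone (adjusted p = 0.053). The value for Dex added to GSK591 was 0.32 ± 0.14 (adjusted p = 0.24), next to 19.6 and 18.8 CPM with GSK591 alone. Dex added to MS023 raised TCEA1 (0.87, adjusted p = 3.1e-05) from a mean of 15.4 CPM with MS023 alone, a call that held in all alternatives. ELL2, a subunit of the super elongation complex, had 18.5 to 22.5 CPM in the 4 libraries with Dex and 8.87 to 15.2 CPM in the 10 others, without overlap. It rose when Dex was added to GSK591 (0.61 ± 0.17, adjusted p = 0.031) and to MS023 (0.60 ± 0.17, adjusted p = 0.017). The first call was lost without the first library of GSK591 with Dex or without either library of GSK591 alone, and the second without the second library of MS023 or of MS023 with Dex. Both were also lost with DESeq2 and with scaling by library size alone, and the adjusted p reached 0.23 and 0.33. ELL2 is a gene of 77.0 kb, and AFF1, ELL, ELL3, EAF1, EAF2, MLLT1 and MLLT3 of that complex were not called with Dex.

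Of the kinases of the polymerase tail, CDK7, the kinase of TFIIH, had 5.96 and 6.51 CPM with MS023 and Dex and 16.2 and 10.7 CPM with MS023 alone, and it fell (-1.14 ± 0.20, adjusted p = 6.6e-05). Without the first library of MS023 alone the difference was -0.77 (adjusted p = 0.074). Beside GSK591, CDK7 had a mean of 9.98 CPM with Dex and 11.0 CPM without it, and it was not called. After 3 h of GSK591 it rose against untreated cells (0.59, adjusted p = 0.017), a call lost in 4 of 11 alternatives. CDK13, which phosphorylates the polymerase during elongation, rose after 3 h with GSK591 (0.33 ± 0.091, adjusted p = 0.013) and MS023 (0.34 ± 0.092, adjusted p = 0.013) against untreated cells. The first of these was lost without any 1 of its 4 libraries (adjusted p up to 0.12) and the second without either untreated library or the first library of MS023 at 3 h, and with scaling by library size alone (up to 0.16). CDK12, CCNK, CCNH and MNAT1 were called in no planned comparison, and neither were the 6 genes of the PAF complex. PPP1CA, a catalytic subunit of the phosphatase that acts on SPT5, rose with 3 h of GSK591 (0.53 ± 0.11, adjusted p = 0.00045) in all alternatives, and 26.9% of its exons are shared with other genes. PPP2R1A, another phosphatase gene of the list, fell there (-0.36, adjusted p = 0.011), a call lost in 3 of 11 alternatives. Of the 9 termination and phosphatase genes, 2 rose and 1 fell with 3 h of GSK591 against untreated cells. With 3 h of MS023, 1 rose and 2 fell.

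The authors' deposited table of GSK591 with Dex against the control gives MEPCE a log2 fold change of -0.58 ± 0.14 (SE) and an adjusted p of 0.0058. In the authors' deposited table of GSK591 at 3 h, HEXIM1 has 0.51 ± 0.14 and an adjusted p of 0.0068. For MS023, the authors' deposited table with Dex gives MEPCE -0.44 with an adjusted p of 0.066, and the authors' deposited table at 3 h gives HEXIM1 0.38 with an adjusted p of 0.11. In the authors' deposited tables no other of the 9 genes has an adjusted p under 0.05 in any of the 6 comparisons. Over all genes, the authors' deposited tables hold 0 (GSK591) and 3 (MS023) genes under that threshold at 15 min. With Dex they hold 154 (GSK591) and 238 (MS023), and at 3 h 535 (GSK591) and 359 (MS023).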

How the data were processed

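PRO-seq was analysed in 14 libraries of A549 cells, 2 per group, grouped by their labels. The deposited counts are whole reads per gene made by the authors with featureCounts (version 2.0.1, build hg38, per the submitters' processing notes). The counting feature, strand setting and aligner version are not given in the sources used here. The authors' deposited comparison tables hold, per the file headers, a log2 fold change with its standard error, p-values, the test statistic (a score) and the mean normalised signal of each gene.

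Counts were tested as deposited with edgeR 4.0.16 (R 4.3.3), with TMM scaling, edgeR's filterByExpr (minimum count 10), 1 coefficient per group over all 14 libraries, 7 residual degrees of freedom, 13 planned contrasts and 2 added, and Benjamini-Hochberg adjustment over 21910 genes. CPM used TMM-scaled library sizes; levels per kb used merged exons of GENCODE release 29. Motifs were read from RefSeq promoter windows. The test was checked on simulated data. DESeq2 1.42.0, other scalings, no filter, fewer groups, a replicate block and each library left out were alternatives. Named are the 9 genes, called genes or partners from a pathway list, and for each called member the 3 genes most correlated over group means. Members, lists and rules were chosen with earlier results of these data known. No interval or floor from counting error is used.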

Additional observations from a re-analysis of the deposited data

How the results depend on the processing

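All 16 calls of single members kept their direction in 196 alternative values, and 156 of these stayed past the threshold. Counts of members called changed as follows. With scaling by library size alone they were 1 (GSK591 3 h against untreated), 0 (MS023 3 h against untreated), 4 (Dex added to GSK591), 3 (Dex added to MS023), 0 (MS023 3 h against 15 min), 5 (Dex averaged) and 0 (3 h averaged). Of all 21910 genes tested, that scaling called 2157, 1001, 1472, 1850, 2169, 4392 and 2877 in these comparisons, in the same order. With no count filter, and also with DESeq2, the counts of members were 1 for GSK591 3 h against untreated, 1 for Dex added to GSK591 and 1 for Dex added to MS023. In these comparisons no filter called 2197, 767 and 1792 of 44051 genes, and DESeq2 called 1342, 413 and 1096 of 21910. With only the groups compared the counts of members were 2 for MS023 with Dex against untreated and 1 for Dex added to GSK591. Over all genes these fits called 2620 of 20395 and 385 of 19744. With a library left out, the count of members fell in some comparisons, and the calls lost are given with each gene above. How many of all genes these fits called is not given here, so the loss cannot be told from a loss of calls over all genes. The causes were not tested beyond the fewer samples, and the lone library then left in a group is assumed to vary like the others. Over all genes, scaling by library size alone called 1472 for Dex added to GSK591 (811 in the main analysis), 4392 for Dex averaged (2744), 712 for GSK591 3 h against 15 min (1405), 977 and 1001 for MS023 with Dex and MS023 3 h against untreated (1679 and 1672), 69 for the difference between Dex effects (252) and 29 for GSK591 against MS023 at 15 min (239). DESeq2 called 413 (811) and 1096 (1966) for Dex added to GSK591 and MS023, 648 (1282) and 892 (1679) for these against untreated, 1342 (2419) and 956 (1672) for 3 h against untreated, and 659 (1405) and 1506 (2640) for 3 h against 15 min. GSK591 against MS023 at 3 h gave 47 with no filter, 9 with only the groups compared, and 5 with DESeq2 and with the replicate block (0). With 15 min of GSK591 and MS023, no filter called 126 and 101 and only the groups compared called 187 and 176 (67 and 40). Replicate numbers were not taken to pair the libraries: same-numbered libraries of the 21 pairs of groups had correlated deviations of -0.07 to 0.1, median 0.02, over all genes tested, and of -0.22 to 0.38, with 8 over 0.1, over the 5000 genes of highest mean. With the replicate block 2 members were called for GSK591 3 h against untreated, and no count of members changed. Of 119 uncalled values, 51 changed sign in some alternative, all with a main absolute log2 of at most 0.161, and 6 were called in some alternative. Depth limits LARP7 (38 to 82 counts) and NELFE (58 to 140) most among the members.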
